A study of Mus musculus with 6 samples.

Results

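CD72 is an inhibitory receptor on the surface of B cells. The gene Cd72 was read here beside 8 genes known for B cells, namely Cd22, Cd37, Cd79a, Cd79b, Ms4a1, Blk, Btk and Pax5, to ask whether a high level of Cd72 in tumor endothelial cells (ECs) of WT mice goes with B-cell genes. These are 9 genes of the 24346 gene symbols measured. Cd72 was chosen by its difference between WT and Apelin-KO samples in these same data, so its difference is given as a description without a test. The 8 others were chosen by what they are known for, and all 9 were found in the data.

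The 6 samples are tumor ECs, 3 from WT and 3 from Apelin-KO mice. Both groups are of the C57BL/6 strain and were 8 to 10 weeks old, and both carried subcutaneous tumors of MC38, a mouse colon carcinoma cell line, that were taken at day 19. The Apelin-KO mice lack the gene of Apelin, a secreted peptide ligand, in all cells and from development on. The sample titles also name saline in both groups, which the text of the study does not describe for this experiment, and whether a sample is 1 mouse or a pool is not given in the sources used here. Cells were sorted as positive for CD31, an endothelial surface protein, and negative for CD45, the surface protein of leukocytes encoded by Ptprc. RNA was sequenced from these bulk sorts, so fewer cells of a type and less RNA per cell cannot be told apart. The p-values given here measure only the spread between these samples.

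Values are FPKM, a level counted in sequenced fragments and scaled both to the length of the transcript and to the depth of the sample. The depth was estimated from the step that a single read makes in low values and lay between 9010000 and 10270000 reads per sample. Apln, the gene removed, was at 432, 435 and 504 FPKM in WT 1 to 3 and at 9.96, 17.5 and 24.3 FPKM in Apelin-KO 1 to 3. The endothelial label held, since all 12 endothelial genes listed were above 1 FPKM on average and Pecam1, which encodes CD31, lay between 553 and 846 FPKM. A value of 0 in these files may be a failed estimate. Gapdh and Ppia, which every cell uses, were listed between 0 and 0.433 FPKM and between 0 and 0.411 FPKM, while Actb lay between 3138 and 3714 FPKM. A gene is therefore only said to be listed at 0.

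B cells recognise antigen through the B-cell receptor, an antibody bound to the membrane. CD79A and CD79B pass its signal into the cell, and the kinases BLK and BTK carry the signal further. CD72 and CD22 hold inhibitory tyrosine motifs (ITIMs) in their tails, which recruit the phosphatase SHP-1 and dampen the receptor. CD72 binds the semaphorin CD100 and is known mainly from B cells, though some macrophages and dendritic cells carry it as well. CD37 is a tetraspanin of mature B cells that other leukocytes also carry. CD20, encoded by Ms4a1, and the transcription factor PAX5 are defining markers of the B lineage.

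Cd72 lies on chromosome 4 of GRCm38 (chr4:43446462-43454628, minus strand). It was at 10.5, 9.79 and 2.73 FPKM in WT 1 to 3 and at 1.03, 1.01 and 1.60 FPKM in Apelin-KO 1 to 3. WT 1 and WT 2 stood far above the other samples, WT 3 lay nearer to the Apelin-KO samples, and the groups did not overlap. The mean was 7.68 ± 4.31 FPKM (SD, n = 3) for WT and 1.21 ± 0.334 FPKM (SD, n = 3) for Apelin-KO, a ratio of means of 6.34. The lowest WT sample was 1.71 times the highest Apelin-KO sample. The log2 fold change on the log2(FPKM + 1) scale, WT minus Apelin-KO, was 1.82 (standard error 0.42). In estimated reads, computed with the longest of the 10 annotated transcripts, Cd72 had 255, 210 and 59.6 reads for WT and 22.9, 24.7 and 36.0 reads for Apelin-KO. Cd72 shares 1603 bases with Tesk1, a kinase gene on the opposite strand, and the strand setting of the authors' counting is not given in the sources used here. Tesk1 was at 8.05 to 9.09 FPKM in WT ECs and at 8.72 to 10.5 FPKM in Apelin-KO ECs, with groups that overlapped. Whether reads of Tesk1 enter the values of Cd72 was not tested.

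The 8 B-cell genes were each under 1 FPKM on average, below the level at which genes entered the main test. They were therefore compared without the filter on low values, over all 16341 genes with a value above 0 in any sample. By limma with Benjamini-Hochberg adjustment, 0 of the 8 had an adjusted p-value under 0.05, beside 0.0122% of all genes in the same fit. At an unadjusted p-value under 0.05 in the direction of WT, 1 of the 8 passed, Cd37, beside 4.93% of all genes. All WT samples exceeded all Apelin-KO samples for 2 of the 8, Cd37 and Cd79a, beside 6.71% of the 5377 genes that were above 0 and under 1 FPKM on average. Without WT 3 the count was 4, with Cd22 and Btk added, and the share of the same low genes was 16.1%. The median log2 fold change of the 8 genes was 0.10, and 8 of 8 were above 0. For Ms4a1, Blk and Pax5 this sign was fixed by their single value in a WT sample, without which they would not have entered the fit, so the count is no sign of a shared direction. The median was 0.25 without WT 3, and 0.47 and 1.19 with pseudocounts of 0.1 and 0.01 FPKM in place of 1 FPKM. Over those 5377 low genes the median was 0.02, and 59.4% were above 0.

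**Figure D1:**
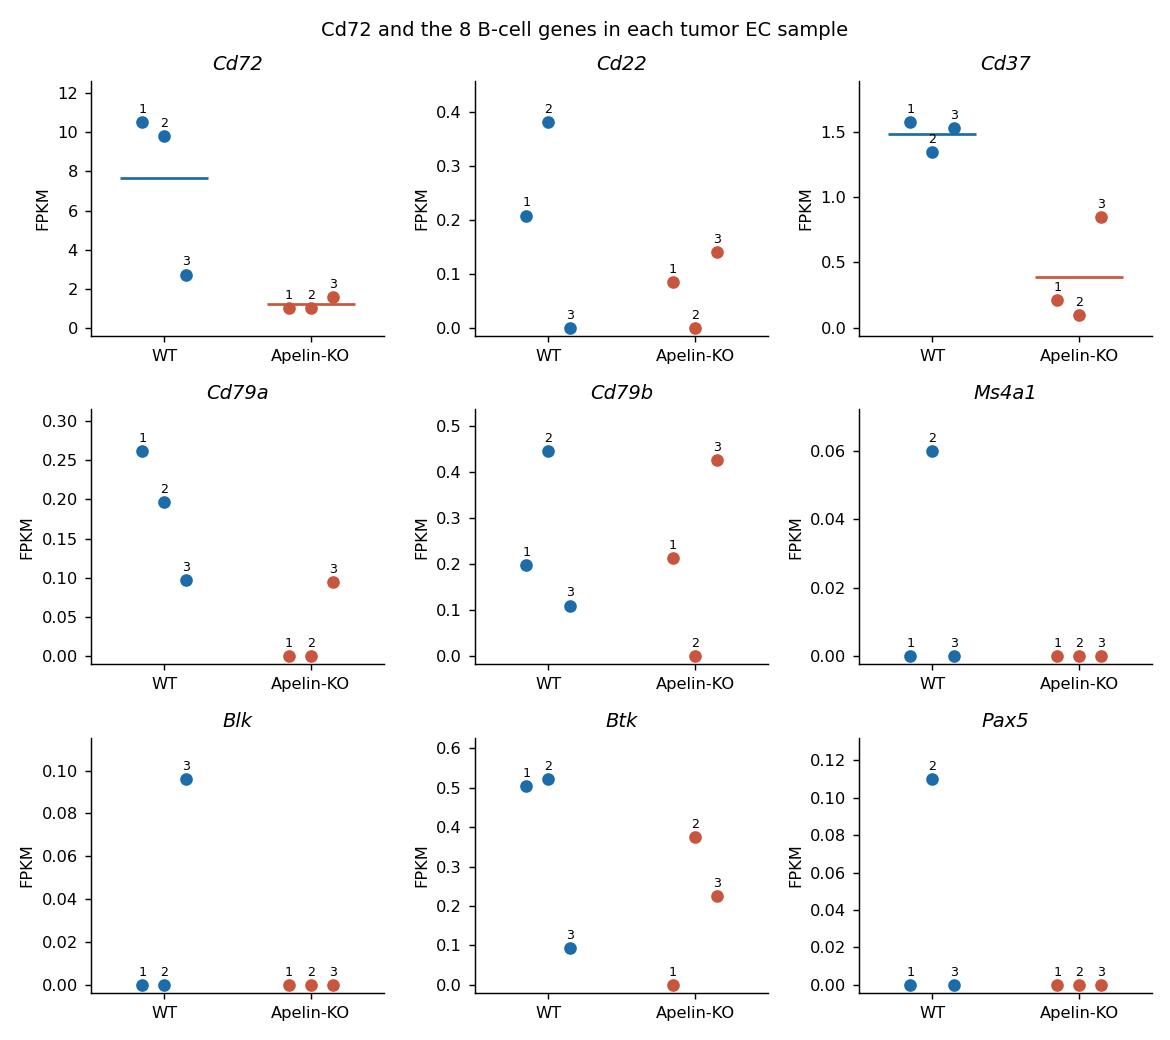
FPKM of Cd72 and the 8 B-cell genes in 3 WT samples (blue) and 3 Apelin-KO samples (red). Each point is a sample, marked with its replicate number, and bars show group means for Cd72 and Cd37, the genes with no sample at 0. The vertical axes differ between panels, with Cd72 reaching 10.5 FPKM, Cd37 1.58 FPKM and the 7 others at most 0.522 FPKM.

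Cd37 (chr7:45233632-45239115 of GRCm38, minus strand) was the highest of the 8. It was at 1.58, 1.34 and 1.53 FPKM in WT 1 to 3 and at 0.213, 0.097 and 0.846 FPKM in Apelin-KO 1 to 3. The 3 WT samples were close to each other, the Apelin-KO samples were spread out, and the groups did not overlap. The mean was 1.48 ± 0.122 FPKM (SD, n = 3) for WT and 0.385 ± 0.403 FPKM (SD, n = 3) for Apelin-KO, a ratio of 3.85. The log2 fold change was 0.88 (standard error 0.20, unadjusted p = 0.00484, adjusted p = 0.510 by limma), so the difference did not pass the adjusted threshold. At the smallest whole numbers that fit the ratios between samples, these values are 16, 12 and 14 reads for WT and 2, 1 and 8 reads for Apelin-KO. With the longest annotated transcript, as used for Cd72, they would be 37.5, 28.3 and 32.8 reads for WT and 4.67, 2.33 and 18.7 reads for Apelin-KO. WT 3, which was low for Cd72, was as high as the other WT samples for Cd37.

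The pair of signal chains of the B-cell receptor was near 0 in both groups. Cd79a (chr7:24897381-24902197 of GRCm38, plus strand) was at 0.262, 0.197 and 0.097 FPKM in WT 1 to 3, listed at 0 in Apelin-KO 1 and 2, and at 0.094 FPKM in Apelin-KO 3. At the smallest whole numbers that fit, these are 3, 2 and 1 reads for WT and 0, 0 and 1 for Apelin-KO, so that the groups are apart only by the scaling of 1 read in WT 3 and 1 read in Apelin-KO 3. The log2 difference was 0.20 (standard error 0.08, adjusted p = 0.562 by limma). Cd79b (chr11:106311341-106314762, minus strand) was at 0.198, 0.446 and 0.110 FPKM in WT 1 to 3 and at 0.214, 0 and 0.425 FPKM in Apelin-KO 1 to 3. The groups overlapped fully, and the log2 difference of 0.05 (standard error 0.16, adjusted p = 0.945 by limma) turned to -0.06 without WT 2 and to -0.08 without Apelin-KO 2.

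Cd22 (chr7:30865402-30880342, minus strand), the other inhibitory receptor among the 9, was at 0.208, 0.381 and 0 FPKM in WT 1 to 3 and at 0.085, 0 and 0.140 FPKM in Apelin-KO 1 to 3. It was highest in WT 1 and WT 2, as Cd72 was, but WT 3 was listed at 0 and the groups overlapped, with a log2 difference of 0.14 (standard error 0.13, adjusted p = 0.788 by limma). By the same reckoning, Cd22 had at most 13 reads in a sample.

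Of the kinases, Btk (chrX:134542336-134583570, minus strand) was at 0.505, 0.522 and 0.093 FPKM in WT 1 to 3 and at 0, 0.374 and 0.226 FPKM in Apelin-KO 1 to 3. BTK is used by macrophages and other myeloid cells as well as by B cells. WT 1 and WT 2 were again the highest samples and WT 3 was below 2 of the Apelin-KO samples, with a log2 difference of 0.19 (standard error 0.18, adjusted p = 0.793 by limma). Blk (chr14:63372836-63417037, minus strand), which is more restricted to B cells, was listed at 0 in all samples but WT 3, where it was at 0.096 FPKM.

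The lineage markers were listed at 0 in most samples. Ms4a1 (chr19:11249675-11266241, minus strand) was listed at 0 in all samples but WT 2, at 0.060 FPKM, and Pax5 (chr4:44524757-44710487, minus strand) in all samples but WT 2, at 0.110 FPKM. The adjusted p-values of Ms4a1, Pax5 and Blk were 0.917, 0.867 and 0.877 by limma, and no fold is given against groups that are listed at 0. With the longest annotated transcript, the single values of Ms4a1, Blk and Pax5 stand for at most 1.6, 1.9 and 7.7 reads.

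By level, Cd72 was the highest of the 9 genes in each of the 6 samples and Cd37 came next in 4 of them. Btk, Cd79b, Cd22 and Cd79a followed with ranges that overlapped each other and reached 0, and Pax5, Blk and Ms4a1 were above 0 in 1 sample each. The summed FPKM of the 8 B-cell genes was 2.75, 3.06 and 1.92 in WT 1 to 3 and 0.512, 0.471 and 1.73 in Apelin-KO 1 to 3. Cd72 stood at 3.83, 3.20 and 1.42 times that sum in WT 1 to 3 and at 2.01, 2.14 and 0.923 times in Apelin-KO 1 to 3. The groups overlapped in this ratio.

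B-lineage genes beyond the 9 were read in the same way. Of 22 listed, 18 were among the gene symbols, and the antibody chains Ighm, Ighd, Igkc and Iglc1 were not analysed here. Fcer2a, a low-affinity receptor for IgE, Tnfrsf13c, the receptor for the survival factor BAFF, Fcrla, Vpreb3 and Rag1 were listed at 0 in all 6 samples. A single read of Fcer2a would have been about 0.0511 FPKM at the mean depth. Only Ebf1, which encodes a transcription factor that adipocytes and stromal cells also use, was above 1 FPKM on average. Ebf1 was 5.56 ± 0.630 FPKM (SD, n = 3) for WT and 6.24 ± 0.768 FPKM (SD, n = 3) for Apelin-KO (adjusted p = 0.749 by limma). H2-Ob, a chaperone of antigen loading in B cells, was the next at 0.342 to 0.689 FPKM over the samples. For 0 of the 12 with a value above 0 did all WT samples exceed all Apelin-KO samples, which is near the 6.71% of low genes. The list's summed FPKM was 6.64 to 7.69 in WT ECs and 6.84 to 8.73 in Apelin-KO ECs.

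Plasma cells, the antibody-secreting descendants of B cells, were read from 8 genes. Mzb1, Jchain and Tnfrsf17, which they express strongly, were listed at 0 in all samples. Xbp1, Prdm1 and Sdc1, which many other cells also use, were above 1 FPKM on average. Of these 3, 0 passed at an unadjusted p-value under 0.05, beside 5.17% higher and 4.25% lower in WT over all genes tested. At an adjusted p-value under 0.05, 0 of the 3 passed, beside 0.00912%, which is Apln alone.

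**Figure D2:**
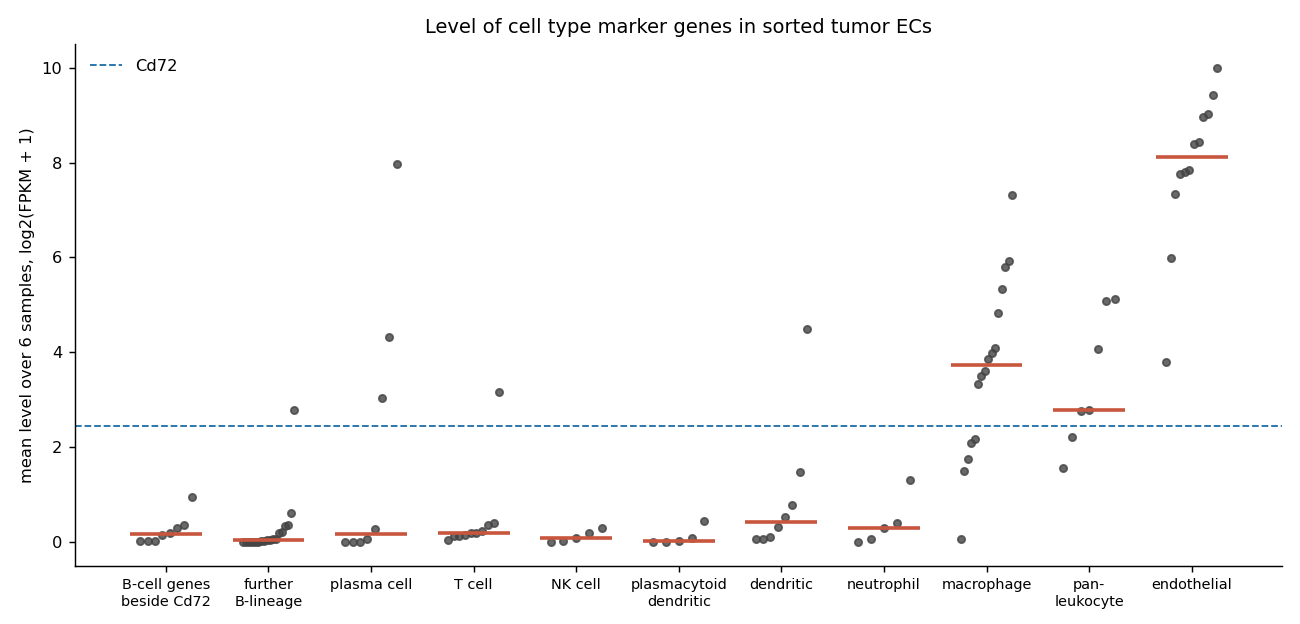
Mean level of each marker gene over the 6 samples as log2(FPKM + 1), with 1 point per gene and a red bar at the median of each list. The dashed line is the level of Cd72. All 8 B-cell genes and all further B-lineage genes except Ebf1 lie under the level of Cd72, while the medians of the macrophage, pan-leukocyte and endothelial lists lie above it.

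The signalling genes downstream of the B-cell receptor, most of which other leukocytes also use, were of mixed direction. Of 16 listed, 13 were above 1 FPKM on average, and 0 passed at an adjusted p-value under 0.05, beside 0.00912% of the 10964 genes tested. At an unadjusted p-value under 0.05, 1 of 13 was higher in WT, Pik3ap1, and 1 was lower, Nfatc1, beside 5.17% higher and 4.25% lower over all genes tested. The median log2 fold change of the 13 was -0.07, against -0.01 over all genes tested. Cd81, Bcl10 and Rasgrp3, the most abundant of them, had log2 fold changes between -0.14 and -0.07. Blnk, the adaptor that links the receptor to its downstream enzymes, was at 1.30 ± 1.06 FPKM (SD, n = 3) for WT and 0.801 ± 0.396 FPKM (SD, n = 3) for Apelin-KO (adjusted p = 0.802 by limma).

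The ligand and partners of CD72 were all above 1 FPKM on average. Sema4d, which encodes the ligand CD100, was at 2.50, 3.52 and 0.457 FPKM in WT 1 to 3 and at 0.294, 0.960 and 0.910 FPKM in Apelin-KO 1 to 3. WT 1 and WT 2 were high, as for Cd72, but WT 3 was below 2 of the Apelin-KO samples (log2 fold change 0.75, standard error 0.41, adjusted p = 0.606 by limma). Ptpn6, which encodes the phosphatase SHP-1, was at 5.35, 9.0 and 2.37 FPKM in WT 1 to 3 and at 1.42, 2.70 and 1.67 FPKM in Apelin-KO 1 to 3. The groups overlapped, since WT 3 was below Apelin-KO 2 (log2 fold change 1.05, standard error 0.38, unadjusted p = 0.0275, adjusted p = 0.512 by limma). Plxnb1, the plexin that CD100 binds outside the immune system, differed by 0.01 on the log2 scale (standard error 0.19), and the adaptor Grb2 by -0.03 (standard error 0.11). Of these 4 genes, 0 passed at an adjusted p-value under 0.05, beside 0.00912% of all genes tested. At an unadjusted p-value under 0.05, 1 of the 4 was higher in WT, Ptpn6, beside 5.17%.

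Leukocyte genes beyond the B lineage were present in the sorted cells and were followed in the same way. Ptprc was at 3.13, 4.84 and 1.27 FPKM in WT 1 to 3 and at 0.043, 1.70 and 0.740 FPKM in Apelin-KO 1 to 3. It was highest in WT 1 and WT 2, while WT 3 lay below Apelin-KO 2. Its log2 fold change was 1.16 (standard error 0.43, unadjusted p = 0.0314, adjusted p = 0.513 by limma). Of the 7 pan-leukocyte genes, 4 were higher in WT at an unadjusted p-value under 0.05, beside 5.17% of all genes tested, and 0 passed at an adjusted p-value under 0.05. For 0 of the 7 did all WT samples exceed all Apelin-KO samples, beside 6.61% of all genes tested. Their summed FPKM was 69.9 to 203 in WT ECs and 39.8 to 80.1 in Apelin-KO ECs.

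Macrophage genes were the most abundant leukocyte genes of the cell type lists. Of 16 listed, 15 were above 1 FPKM on average, and the log2 fold change was above 0 for all 15, with a median of 1.24. At an unadjusted p-value under 0.05, 8 of 15 were higher in WT, beside 5.17% of all genes tested, and at an adjusted p-value under 0.05, 0 of 15, beside 0.00912%. For 2 of 15, Fcgr1 and Tyrobp, all WT samples exceeded all Apelin-KO samples, beside 6.61% of all genes tested. Csf1r, the receptor that macrophages depend on, was at 21.5, 34.2 and 9.19 FPKM in WT 1 to 3 and at 3.50, 12.7 and 8.63 FPKM in Apelin-KO 1 to 3. WT 2 was the highest sample for most of these genes, and WT 3 lay among the Apelin-KO samples. Lyz2, C1qb and C1qc, the most abundant of the list, had log2 fold changes of 1.19, 1.35 and 1.36 (standard errors 0.57, 0.64 and 0.53), with adjusted p-values of 0.564, 0.552 and 0.516 by limma.

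For other leukocyte types, few of the listed genes were above 1 FPKM on average. Of the 10 T-cell genes, 1 was, Lck, at 7.93 to 8.83 FPKM for WT and 7.37 to 7.68 FPKM for Apelin-KO. Lck and Cd8b1 were the 2 of the 10 with all WT samples above all Apelin-KO samples, beside 6.61% of genes above 1 FPKM and 6.71% of low genes, Cd8b1 at no more than 0.324 FPKM, and neither passed at an unadjusted p-value under 0.05. The summed FPKM of the list, most of it from Lck, was 10.02 to 10.2 for WT and 8.07 to 9.0 for Apelin-KO. In the fit without the filter, 8 of the 10 had a log2 fold change above 0, with a median of 0.06. Cd3e was at 0.005, Cd8a at -0.03 and Cd28 at -0.08. Of the 5 NK-cell genes and the 5 plasmacytoid dendritic cell genes, 0 were above 1 FPKM on average. Of the 8 dendritic cell genes, 2 were, Clec9a and Zbtb46, a factor that endothelial cells also use and that lay between 19.8 and 23.5 FPKM, and of the 5 neutrophil genes found, 1 was, S100a8. In these lists 0 genes passed at an adjusted p-value under 0.05, beside 0.00912% of genes tested and 0.0122% without the filter. Beside 5.17% higher and 4.25% lower in WT over all genes tested, 0 of the 4 genes above 1 FPKM passed at an unadjusted p-value under 0.05. Below that level, in the fit without the filter, the dendritic cell gene Batf3 did (unadjusted p = 0.0290, adjusted p = 0.515 by limma), beside 4.93% of all genes higher in WT. It was at 1.55, 1.095 and 0.645 FPKM for WT and 0.421, 0.576 and 0 FPKM for Apelin-KO. Batf3 was the 1 of the 8 dendritic cell genes with groups that did not overlap, beside 6.71% of low genes. In that fit, 5 of the 8 had a log2 fold change above 0, with a median of 0.06. Of the 12 endothelial genes, 3 were lower in WT at an unadjusted p-value under 0.05, Pecam1, Cdh5 and Tie1, beside 4.25% of all genes tested, and 0 passed at an adjusted p-value under 0.05. The summed FPKM of the endothelial list was 3608 to 4358 in WT ECs and 4514 to 4774 in Apelin-KO ECs. The part of leukocyte RNA in the difference of Cd72 was not tested.

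**Figure D3:**
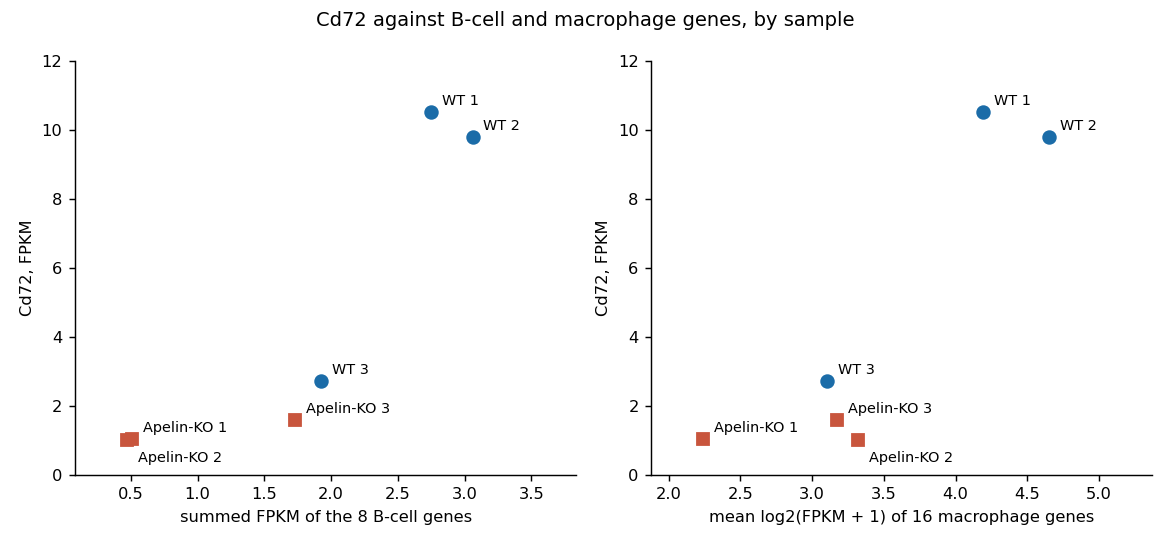
FPKM of Cd72 in each sample against the summed FPKM of the 8 B-cell genes (left) and against the mean log2(FPKM + 1) of the 16 macrophage genes (right), for WT (circles) and Apelin-KO samples (squares). WT 1 and WT 2 are highest on all axes, and WT 3 lies beside Apelin-KO 2 and 3 for the macrophage genes, at 3.11 against 3.32 and 3.18.

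Cd72 was also set against macrophage genes in each sample. The ratio of Cd72 to Csf1r was 0.491, 0.287 and 0.297 in WT 1 to 3 and 0.293, 0.0796 and 0.185 in Apelin-KO 1 to 3. The ratio to Adgre1, which encodes the macrophage marker F4/80, was 0.90, 0.415 and 0.506 in WT 1 to 3 and 0.507, 0.157 and 0.323 in Apelin-KO 1 to 3. The groups overlapped in both ratios, with Apelin-KO 1 at the level of WT 2 and WT 3. Within the Apelin-KO group, Cd72 was nearly equal in Apelin-KO 1 and Apelin-KO 2, where the mean log2 level of the macrophage genes was 2.24 and 3.32.

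The likeness of each gene to Cd72 was described by Pearson's r of log2(FPKM + 1) over the 6 samples. These samples share the genotype contrast by which Cd72 was chosen, and a pair of samples, WT 1 and WT 2, lies far from the others, so r is given without a p-value, with Spearman's rho and with r after these 2 samples were left out. Cd79a had an r of 0.96 (rho 0.99), on at most 3 reads per sample, and 0.87 without the 2 samples. Cd37 had an r of 0.80 (rho 0.94), and 0.98 without the 2 samples. The r of its deviations from the group means was 0.17 over both groups. Within Apelin-KO, both genes were highest in Apelin-KO 3 and lowest in Apelin-KO 2, while within WT, Cd37 varied little and Cd72 varied widely. Cd22 and Btk had an r of 0.78 and 0.71 (rho 0.70 and 0.54), which fell to -0.22 and -0.23 without the 2 samples. Cd79b was at 0.40, Ms4a1 and Pax5 at 0.59 each from their single value in WT 2, and Blk at -0.06. In counts this sparse, r is no more than a description.

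The median r of the 15 macrophage genes was 0.87, with 0.75 for deviations from the group means. Without WT 1 and WT 2 the median was 0.35, so that this likeness rests largely on those samples. Over the 10963 genes above 1 FPKM the median r was -0.05, and 5.99% had an r of at least 0.8. The median r of the 12 endothelial genes was -0.84, with -0.63 for deviations from the group means and -0.22 without WT 1 and WT 2.

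**Figure D4:**
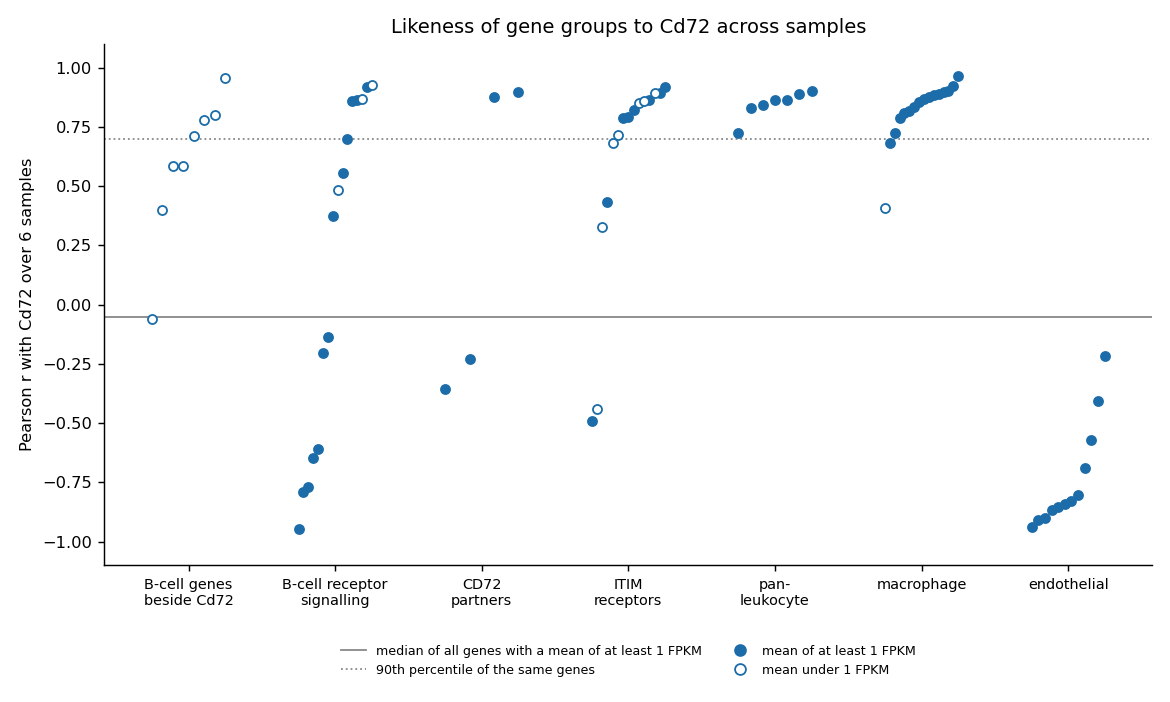
Pearson r with Cd72 over the 6 samples for each gene of 7 lists, with 1 point per gene and open points for genes under 1 FPKM on average. The solid line is the median of all genes above 1 FPKM (-0.05) and the dotted line their 90th percentile (0.70). Pan-leukocyte genes and nearly all macrophage genes lie near or above the dotted line, endothelial genes lie below 0, and the B-cell genes range from -0.06 to 0.96.

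The 10 genes with the highest r among those above 1 FPKM on average were Ttc39c, Nfkb2, Scarf2, Rab7b, Gpr183, Notch2, Acat2, Adam8, Xlr3c and Igfbp6, with r between 0.979 and 0.995. Gpr183 guides B cells, dendritic cells and other leukocytes along oxysterol gradients, Rab7b is a small GTPase of lysosomal traffic, and Nfkb2 encodes a subunit of the NF-κB factors. Ttc39c, the likest, was at 1.98, 2.13 and 0.996 FPKM in WT 1 to 3 and at 0.634, 0.534 and 0.724 FPKM in Apelin-KO 1 to 3. As for Cd72, WT 1 and WT 2 were highest and WT 3 stood between them and the Apelin-KO samples. None of the 10 is in the B-cell lists. Because they were picked for their likeness to Cd72, the separation of their groups is not a further result.

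Spi1, looked up after its rank was seen, had an r of 0.97 and was 24th in this order. It encodes PU.1, a transcription factor of myeloid cells and B cells that binds DNA with a GGAA core. Spi1 was at 5.22, 6.38 and 2.12 FPKM in WT 1 to 3 and at 1.79, 1.12 and 1.40 FPKM in Apelin-KO 1 to 3, with groups that did not overlap. It was looked up for its likeness to Cd72, so its difference is given without a test. Whether PU.1 acts on any of the 9 genes was not tested. The promoters of Cd72 and Cd37, the 2 genes of the 9 with the highest levels, are shown, from RefSeq on GRCm38.p6. Each runs from 250 bases before to 50 bases after the RefSeq start of the gene, is read along the gene's own minus strand, and covers chr4:43454577-43454876 for Cd72 and chr7:45238790-45239089 for Cd37. Capitals mark ACTTCCTC, the reverse complement of GAGGAAGT, a form of the GGAA core preferred by PU.1. It lies 49 to 42 bases before the RefSeq start in Cd72 and 25 to 18 bases before it in Cd37. The RefSeq starts lie 2 and 276 bases inside the GENCODE genes given above for Cd72 and Cd37, so that the window and the letters of Cd37 are downstream of its GENCODE start.
Cd72 promoter: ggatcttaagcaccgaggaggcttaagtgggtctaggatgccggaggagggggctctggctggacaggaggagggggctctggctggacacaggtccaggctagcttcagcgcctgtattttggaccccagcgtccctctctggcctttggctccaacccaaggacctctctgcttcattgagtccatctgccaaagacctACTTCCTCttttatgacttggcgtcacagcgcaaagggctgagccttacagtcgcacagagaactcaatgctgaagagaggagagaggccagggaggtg
Cd37 promoter: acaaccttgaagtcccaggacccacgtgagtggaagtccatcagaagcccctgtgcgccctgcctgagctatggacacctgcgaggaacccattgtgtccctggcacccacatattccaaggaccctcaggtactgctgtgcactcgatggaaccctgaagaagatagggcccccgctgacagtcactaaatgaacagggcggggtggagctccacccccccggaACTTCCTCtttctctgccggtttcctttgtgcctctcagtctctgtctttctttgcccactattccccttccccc

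The letters GAGGAAGT were chosen after these sequences had been read, and both strands were searched. Of the 9 genes, 6 had a promoter entry, and Cd79b, Ms4a1 and Blk had none. The letters were found in 2 of the 6, Cd72 and Cd37, and in 1052 of all 32851 promoters of the same length, or 3.2%. The form in Cd72 and Cd37, ACTTCCTC, was in 461 of all promoters, or 1.4%. The choice of letters fixed the matches in Cd72 and Cd37 beforehand, so these shares are no test of them. Near forms, such as aggaagtg in Cd79a, were not counted. A match describes these letters and is not a bound site, and no match says only that these letters are not in this window.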

How the data were processed

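The authors prepared stranded mRNA libraries and read 75 bases from 1 end of each fragment. Per the labels, reads were mapped to mm10 with TopHat2 2.1.1, Bowtie2 2.2.4 and SAMtools 1.0, and the deposited FPKM were made with Cufflinks 2.2.1. The methods of the study name other versions of the mapping tools. Annotation, strand setting and filters are not given in the sources used here. Each sample's file holds FPKM with 3 decimals for 24346 gene symbols and no read counts. The members and the gene lists were chosen with earlier results of these data known.

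WT and Apelin-KO samples, 3 each, entered limma 3.58.1 (R 4.3.3) on log2(FPKM + 1), which understates the change of low genes. The test was two-sided and moderated, with Benjamini-Hochberg adjustment, over the 10964 genes that averaged 1 FPKM or more. Genes below that level take their values from the same fit without the filter. An exact permutation test of 3 against 3 samples cannot go below 0.1, so none was run.

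Depth was estimated as the value at which low FPKM of 3742 single-transcript genes longer than 700 bases came closest to whole reads, with 200-base fragments assumed. Then 64.2% to 66.5% of values came within 0.1 of a whole number of reads, against 20% for values spread evenly. Because the share is far from complete, no count test was run. Between 14089 and 14621 genes per sample were above 0. The fits and the depth estimate were tested on simulated data.

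Named genes are the 9 members, the CD72 partners, Ptprc, Apln, the 10 genes likest to Cd72 and up to 3 of the most abundant genes of each of the 13 lists. Others, such as Spi1, Tesk1, Gapdh, Ppia, Actb, Fcgr1, Tyrobp, Csf1r, Adgre1, Blnk, Pik3ap1, Nfatc1, Cdh5, Tie1 and Cd8b1, were named after their values were seen. The values of 1 gene of the B-lineage list are not reported here. Positions come from GENCODE M21 on GRCm38, promoters from RefSeq. Alternatives changed the pseudocount (0.1 or 0.01 FPKM), the filter (none, or a mean of at least 5 FPKM), the scaling, the variance, the sample weights, the replicate block and the samples included. Tables and plots were made in Python 3.11.15 (numpy 2.4.6, pandas 2.3.3, matplotlib 3.10.9).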

Additional observations from a re-analysis of the deposited data

How the results depend on the processing

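The alternatives for the 8 B-cell genes were run without the filter on low values, a combination chosen after seeing the data, since no B-cell gene is left with a mean of at least 1 or 5 FPKM. In all of them, 0 B-cell genes passed at an adjusted p-value under 0.05, with a lowest adjusted p-value of 0.322, for Cd37. The count with WT above Apelin-KO was 2 and lay between 2 and 4 when each sample was left out, with 4 without WT 3 (Cd22, Cd37, Cd79a and Btk), while the share of all low genes lay between 9.39% and 16.1%, the highest without WT 3. Their median log2 fold change of 0.10 became 0.47 and 1.19 with pseudocounts of 0.1 and 0.01 FPKM, and lay between 0.062 and 0.25 when each sample was left out, the highest without WT 3. Cd79b turned to -0.06 without WT 2 and lay between -0.081 (without Apelin-KO 2) and 0.17 when each sample was left out, and the cause was not tested. The other B-cell genes kept their direction under the alternatives that gave a value. Ms4a1 and Pax5 gave none without WT 2 and Blk none without WT 3, since each is above 0 in that sample alone. The log2 fold change of Cd72 lay between 1.53 and 2.35 when each sample was left out. Over all genes, 1 had an adjusted p-value under 0.05 in the main fit, Apln, the gene removed (adjusted p = 0.00747 by limma). The count was 2 with a pseudocount of 0.01 FPKM, without the filter, with a mean of at least 5 FPKM or with an intensity trend. It lay between 0 and 3 when each sample was left out, with 0 without WT 2 or without Apelin-KO 2 and 3 without WT 1.

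Replicate numbers were no sign of pairing. Deviations of same-numbered samples from their group means correlated between -0.14 and 0.21, and only WT 2 correlated best with its own number. With the replicate number as a block, 1 gene and 0 B-cell genes had an adjusted p-value under 0.05, the adjusted p-value of Cd37 was 0.599, the median log2 fold change of the 8 was 0.10 and that of Cd72 was 1.82. Depth limits all 8 B-cell genes. Cd37 rests on 1 to 16 reads per sample and Cd22 on at most 13, at the smallest whole numbers that fit.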

Other observations

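Inhibitory receptors with ITIM motifs, the family by which CD72 and CD22 act, were read from 15 other genes, of which 8 were above 1 FPKM on average. At an unadjusted p-value under 0.05, 5 of the 8 were higher in WT, beside 5.17% of all genes tested, and 0 passed at an adjusted p-value under 0.05 by limma. Their median log2 fold change was 0.80 and their median r with Cd72 was 0.81, which fell to 0.22 without WT 1 and WT 2. Sirpa, the receptor that reads the CD47 signal on macrophages, was at 25.3, 25.2 and 14.8 FPKM in WT 1 to 3 and at 14.1, 14.8 and 11.4 FPKM in Apelin-KO 1 to 3. WT 1 and WT 2 were high, and WT 3 lay barely above Apelin-KO 2. All WT samples exceeded all Apelin-KO samples for 3 of the 15, Sirpa, Pirb and Cd300a, beside 6.61% of genes above 1 FPKM and 6.71% of low genes. Without the filter, 12 of the 15 had a log2 fold change above 0. Pirb, under 1 FPKM on average, was at 0.85 in that fit (standard error 0.19, unadjusted p = 0.00497, adjusted p = 0.510 by limma). Fcgr2b, the inhibitory Fc receptor that B cells and macrophages share, was at 9.65, 14.1 and 4.44 FPKM in WT 1 to 3 and at 1.51, 6.31 and 3.16 FPKM in Apelin-KO 1 to 3, with groups that overlapped. Ceacam1, which endothelial cells also carry, differed by -0.07 on the log2 scale (standard error 0.17).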
